A study of Caenorhabditis elegans with 9 samples.

Results

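Chromosome IV of Caenorhabditis elegans was read as 18 consecutive segments of small RNA reads, out of 104 segments that cover the genome. Segments 1 to 17 are 1 Mb long and segment 18 holds the last 493829 bases. Of the 18, 8 overlap the 2 regions in which most piRNA genes of this worm lie, at 4.5 to 7 Mb (the first cluster, segments 5, 6 and 7) and, in the second cluster, from the middle of segment 14 into segment 18 (segments 14 to 18). The other 10 segments, 1 to 4 and 8 to 13, are the rest of the chromosome. The members were chosen by position and not by their reads. Segment 6, for example, spans bases 5000001 to 6000000 of chromosome IV, and segment 16 spans bases 15000001 to 16000000.

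The libraries came from whole adult hermaphrodites of 3 genotypes with 3 libraries each. The prg-1(∆PAZ-domain) animals, here PAZ-deletion, are labelled as lacking the PAZ domain of the Argonaute PRG-1. The prg-1(Rnase-dead) animals, here RNase-dead, are labelled as lacking its nuclease activity. The control genotype is Wild Type. All animals grew at 25 °C and were collected 24 h past mid-L4, the last larval stage, with 20 to 30 animals pooled per genotype. The labels name neither the alleles nor the wild-type strain, and the growth protocol mentions males as well as hermaphrodites. Separate cultures per library are not stated, so the spread among libraries may be technical. A p-value here rests on that spread pooled over the genotypes and mostly over segments, not on the 3 libraries of a segment alone. The tables hold no prg-1 transcript level, so the genotypes were not checked against it.

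In C. elegans each piRNA is transcribed from a small gene of its own, most of them on chromosome IV, and many of these genes carry a short motif upstream of the start. The mature piRNA is loaded into PRG-1, the Piwi-clade Argonaute of the worm, and does not accumulate when the protein is lost. When PRG-1 finds a matching transcript, RNA-dependent RNA polymerases copy that transcript into secondary siRNAs that carry a 5′ triphosphate. Small RNA reads that map to a piece of chromosome IV can therefore be piRNAs, microRNAs, secondary siRNAs or fragments of other transcripts, and the segment table does not separate them.

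The gene annotation shows how unevenly piRNA genes lie on the chromosome. Ensembl release 115 for the WBcel235 assembly lists 15363 piRNA genes, of which 14714 (95.8%) are on chromosome IV. The 8 cluster segments hold 14401 of them (97.9%) and the other 10 hold 313. The second cluster holds 11574 and the first 2827. Segment 16 has 3519, segment 15 has 3476 and segment 17 has 2950, and within the first cluster segment 6 leads with 1638. The partly overlapping segments have fewer, 279 in segment 5, 1127 in segment 14 and 502 in segment 18. None of the other 10 segments has more than 79, the number in segment 8, and segment 2 has 1. Protein-coding genes run the other way, at 143.5 per Mb in the second cluster, 197.0 per Mb in the first and 204.5 per Mb in the rest of the chromosome.

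MicroRNA genes are spread over both kinds of segment. The annotation places 22 of the 50 microRNA genes of the chromosome in cluster segments and 28 in the others. Segment 4 holds cel-mir-58a, of the family related to fly bantam. Segment 12 holds cel-mir-51, cel-mir-53 and cel-mir-124, the last a neuronal microRNA, and segment 15 holds cel-mir-52. Segment 6 holds cel-mir-228, cel-mir-790, cel-mir-2217a, cel-mir-4815 and cel-mir-8191, and segment 14 holds none.

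Libraries held 1022428 to 3121968 genome-mapped reads, and a single member held 1025 to 98551 reads in a library. Over all segments, counting error was small beside the spread between libraries of a genotype. It was not small in every member, since the spread could be as low as 4706 ± 55.3 RPM per Mb (segment 3, RNase-dead, SD, n = 3). Levels are reads per 1000000 genome-mapped reads (RPM), divided by segment length where segments are compared. Chromosome IV took 15.6% ± 0.0738 of genome-mapped reads in PAZ-deletion, 15.6% ± 0.290 in RNase-dead, against 13.98% ± 1.98 in wild type (SD, n = 3). The wild-type spread comes from replicate 2 at 11.7%, against 14.9% and 15.4% in replicates 1 and 3. The last segment of chromosome I, where ribosomal RNA genes lie, took 4.31%, 4.07% and 5.56% of reads in the PAZ-deletion libraries, 1.64%, 2.62% and 2.55% in RNase-dead and 12.2%, 14.3% and 3.83% in wild type. With that segment out of the denominator, wild-type replicate 2 still had the lowest share for chromosome IV, 13.7%, against 15.7% to 16.9% in the other 8 libraries.

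Read density did not follow piRNA gene density along the chromosome. Segment 6, inside the first cluster, had the highest level in every library. Its level was 65017, 46582 and 41556 RPM per Mb in PAZ-deletion, 22835, 25855 and 22407 in RNase-dead and 38283, 24688 and 29133 in wild type. Segment 13, just before the second cluster and with 41 piRNA genes, came next in the mean of each genotype, at 15485 ± 488, 14377 ± 908 and 11265 ± 2175 RPM per Mb in PAZ-deletion, RNase-dead and wild type (SD, n = 3). In all 3 genotypes the libraries of segment 6 lay above every library of segment 13.

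Segments rich in piRNA genes ranged over the whole order of read density. Segment 15, with 3476 piRNA genes, ranked 7 of 18 over all libraries, segment 17, with 2950, ranked 15, and segment 6, with 1638, ranked 1. Segment 16, with the most piRNA genes, had 2325 ± 147 RPM per Mb in PAZ-deletion, 4877 ± 195 in RNase-dead and 3617 ± 533 in wild type, and ranked 17. The lowest cluster segment by the mean of all libraries was 18, and the lowest of the rest was segment 3, at 2765 ± 442, 4706 ± 55.3 and 3617 ± 582 RPM per Mb in the same order (SD, n = 3). Over the 18 segments Spearman's rho between piRNA genes per Mb and mean read density was -0.045 in PAZ-deletion, -0.019 in RNase-dead and -0.026 in wild type. With protein-coding genes per Mb it was 0.379, 0.315 and 0.358. These are descriptions over segments that share libraries. In wild type, segments 13, 5, 10, 7, 12, 4, 15, 9, 14, 2, 8, 11, 1, 17, 18, 3 and 16 follow segment 6 in falling order of mean, and each overlapped the next in its library values.

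**Figure D1:**
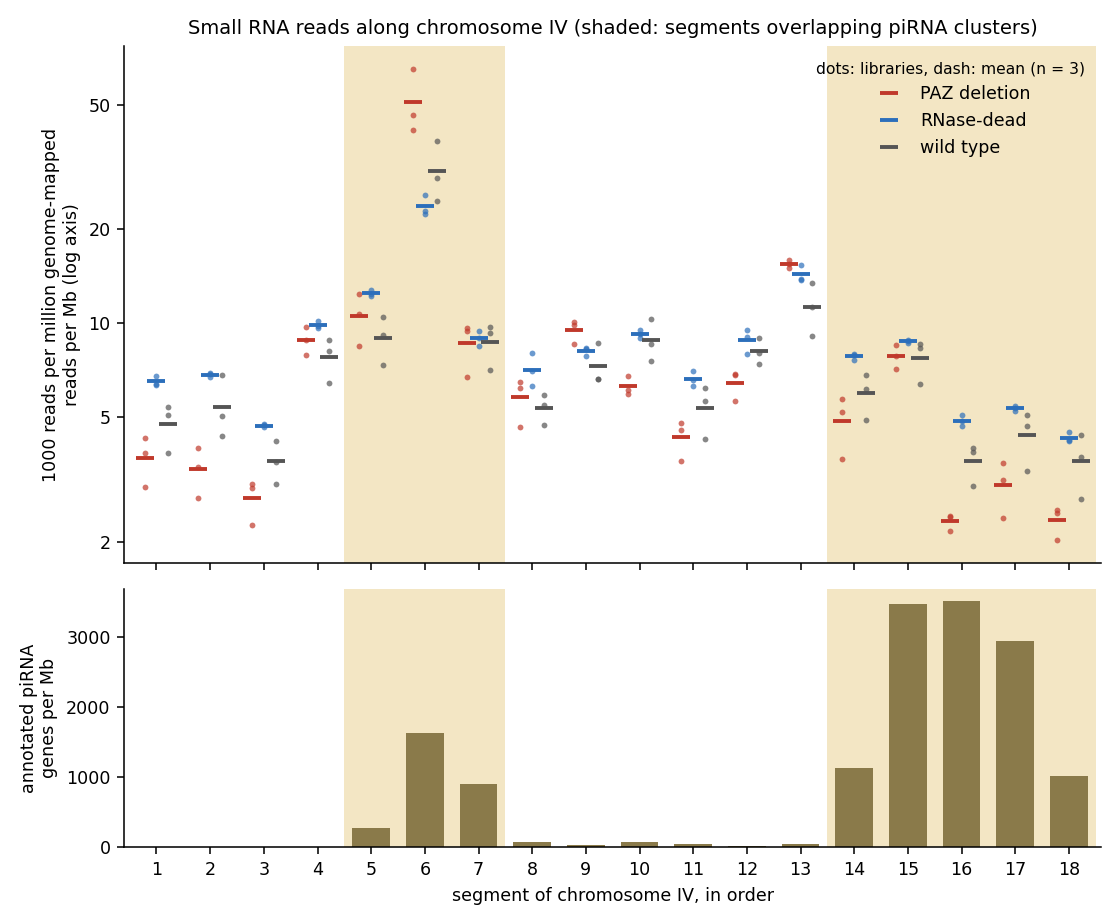
Upper panel, read density (1000 reads per 1000000 genome-mapped reads per Mb, log axis) in each of the 18 segments of chromosome IV, with dots for libraries and dashes for means of 3. Lower panel, annotated piRNA genes per Mb in the same segments. Segment 6 stands above all others in the 3 genotypes, while segments 16 to 18, which hold many piRNA genes, are among the lowest.

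Sense piRNA reads made up a small part of what mapped to the clusters. Reads matching piRNAdb, a database of piRNA sequences, were counted in a separate table without positions. If every sense piRNA read of a library came from the 8 cluster segments, they would be 2.06% ± 0.292 of cluster reads in PAZ-deletion, 8.30% ± 0.727 in RNase-dead, against 6.43% ± 0.809 in wild type (SD, n = 3). Set against the second cluster alone they would be 9.57% ± 0.587, 21.2% ± 1.39 and 19.8% ± 3.57. These shares are upper limits for reads listed in piRNAdb, since the table does not show how many of those reads mapped to the clusters.

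The cluster segments as a whole were denser than the rest of the chromosome, and this turned on segment 6. The ratio of reads per Mb, cluster segments over the other 10, was 2.15, 1.68 and 1.60 in the PAZ-deletion libraries, 1.18, 1.23 and 1.20 in RNase-dead and 1.63, 1.32 and 1.30 in wild type. The 3 RNase-dead libraries were below all others, and the PAZ-deletion libraries overlapped wild type. Without segment 6 the ratio was 0.884 ± 0.0693 in PAZ-deletion, 0.942 ± 0.0134 in RNase-dead, against 0.933 ± 0.0624 in wild type (SD, n = 3), and every library was below 1. When segment 13, the highest of the other 10, was left out as well, the ratio was 1.04 ± 0.0585 in PAZ-deletion, 1.03 ± 0.0312 in RNase-dead, against 1.01 ± 0.0756 in wild type (SD, n = 3), and the 9 libraries lay between 0.929 and 1.098.

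The 2 clusters stood on opposite sides of the rest of the chromosome. In the first cluster the ratio to the other 10 segments was 4.45, 3.24 and 2.99 in PAZ-deletion, 1.78, 1.90 and 1.80 in RNase-dead and 2.83, 2.21 and 2.11 in wild type, and no 2 genotypes overlapped. This cluster includes segment 6, the highest segment in every library, and its ratio without segment 6 was not taken. In segments 5 and 7, its other members, PAZ-deletion overlapped both RNase-dead and wild type in RPM per Mb. In the second cluster the ratio to the other 10 segments was 0.607, 0.643 and 0.673 in PAZ-deletion, 0.776, 0.775 and 0.796 in RNase-dead and 0.827, 0.718 and 0.762 in wild type. All PAZ-deletion libraries were lowest there, while RNase-dead lay inside the range of wild type. Such ratios are taken within a library and do not use the genome-mapped total. They are sums over chosen segments and are given without a test.

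**Figure D2:**
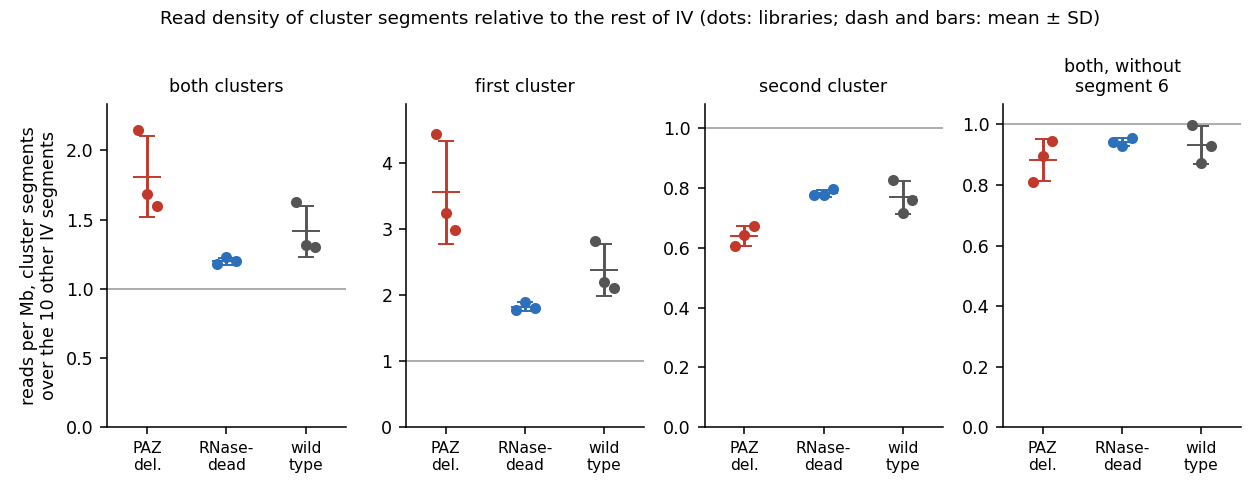
Ratio of reads per Mb in cluster segments to reads per Mb in the 10 other segments of chromosome IV, with dots for libraries and mean ± SD for 3 libraries per genotype. For the second cluster PAZ-deletion lies between 0.607 and 0.673, below the other 6 libraries, and without segment 6, with segment 13 kept, all libraries lie below 1.

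PAZ-deletion was first compared with wild type, segment by segment. Of the 8 cluster segments, segment 6 rose and segments 16, 17 and 18 fell, and 4 were not called (edgeR quasi-likelihood test on counts, false discovery rate FDR under 0.05). Of the other 10, segments 9 and 13 rose, segments 2 and 10 fell and 6 were not called. Over all 104 segments 45.2% were called, 17.3% higher and 27.9% lower, so 8 of 18 members is a share like that of the genome. In 7 of 18 members the 2 genotypes did not overlap, and over all segments 41.3% did not. The median log2 fold change was -0.15 over cluster segments, -0.33 over the other 10 and -0.13 over all 104. In whole-animal RNA, fewer cells of a type and less RNA per cell cannot be told apart.

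The increase of segment 6 was the largest on the chromosome in this comparison. The mean was 51051 ± 12353 RPM per Mb in PAZ-deletion and 30701 ± 6932 in wild type (SD, n = 3), with no overlap. The log2 fold change was 0.73 ± 0.23 (SE, edgeR FDR 0.00574). The call was lost in 2 of 15 alternatives. Without PAZ-deletion replicate 1 the log2 fold change was 0.52 with edgeR FDR 0.0595. In a fit of the 2 groups with a replicate block the edgeR FDR was 0.0776. The FDR ranged from 0.00224 to 0.0776 over all alternatives. Segment 6 alone made up 56.7% ± 9.57 of cluster reads in PAZ-deletion and 42.6% ± 4.29 in wild type.

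At the far end of the second cluster all 3 segments were lower in PAZ-deletion. Segment 16 had 2156, 2400 and 2419 RPM per Mb in PAZ-deletion, against 3871, 3004 and 3975 in wild type. The groups did not overlap, and the log2 fold change was -0.64 ± 0.18 (SE, edgeR FDR 0.00174). Segment 18 had 2030, 2516 and 2466 RPM per Mb in PAZ-deletion, against 3741, 2735 and 4384 in wild type. These values did not overlap either, and the log2 fold change was -0.63 ± 0.17 (SE, edgeR FDR 0.00111). Segment 17 had 2383, 3152 and 3558 RPM per Mb in PAZ-deletion, against 4679, 3357 and 5098 in wild type. Here PAZ-deletion replicate 3 lay above wild-type replicate 2, and the call (log2 fold change -0.53 ± 0.18 SE, edgeR FDR 0.00885) was lost without PAZ-deletion replicate 1 or wild-type replicate 1 or 3, with an FDR of up to 0.0792 over the alternatives.

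Segment 15 holds almost as many piRNA genes as segment 16 and was not called. It had 7152, 7856 and 8534 RPM per Mb in PAZ-deletion, against 8312, 6401 and 8563 in wild type (log2 fold change 0.016 ± 0.16 SE). The ratio of segment 16 to segment 15, a pair named after their values were seen, was 0.301, 0.306 and 0.284 in PAZ-deletion, 0.580, 0.531 and 0.559 in RNase-dead and 0.466, 0.469 and 0.464 in wild type. Within each genotype these ratios varied little, and no 2 genotypes overlapped. This spread was not compared with counting error. Segments 5, 7 and 14, the other members of the clusters, had log2 fold changes of 0.23, -0.014 and -0.29 and were not called.

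Outside the clusters the largest decrease was in segment 2, with a lone annotated piRNA gene. It had 2756, 3473 and 3988 RPM per Mb in PAZ-deletion, against 5057, 4351 and 6818 in wild type, without overlap (log2 fold change -0.67 ± 0.17 SE, edgeR FDR 0.000538). Segment 10 had 6123, 5954 and 6777 RPM per Mb in PAZ-deletion, against 8587, 7602 and 10291 in wild type, also without overlap (log2 fold change -0.49 ± 0.16 SE, edgeR FDR 0.00894). That call was lost without PAZ-deletion replicate 2 or wild-type replicate 3, with an FDR of up to 0.0833 over the alternatives. A decrease of this size was thus measured in segments with many piRNA genes and in segments with few.

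The increases outside the clusters were smaller. Segment 13 had 15506, 14987 and 15962 RPM per Mb in PAZ-deletion, against 11283, 9081 and 13430 in wild type, without overlap (log2 fold change 0.46 ± 0.18 SE, edgeR FDR 0.0217). Segment 9 had 8587, 10078 and 9842 RPM per Mb in PAZ-deletion, against 6650, 6612 and 8676 in wild type, and the lowest PAZ-deletion library lay below the highest wild-type one (log2 fold change 0.38 ± 0.16 SE, edgeR FDR 0.0476). Segment 13 was no longer called without PAZ-deletion replicate 2 or 3 or wild-type replicate 1 or 2, nor was segment 9, with FDRs of up to 0.119 and 0.216 over the alternatives. The count of called segments among these 10 was 1 without PAZ-deletion replicate 2 and 2 without wild-type replicate 1, and the cluster count was 2 without PAZ-deletion replicate 1.

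**Figure D3:**
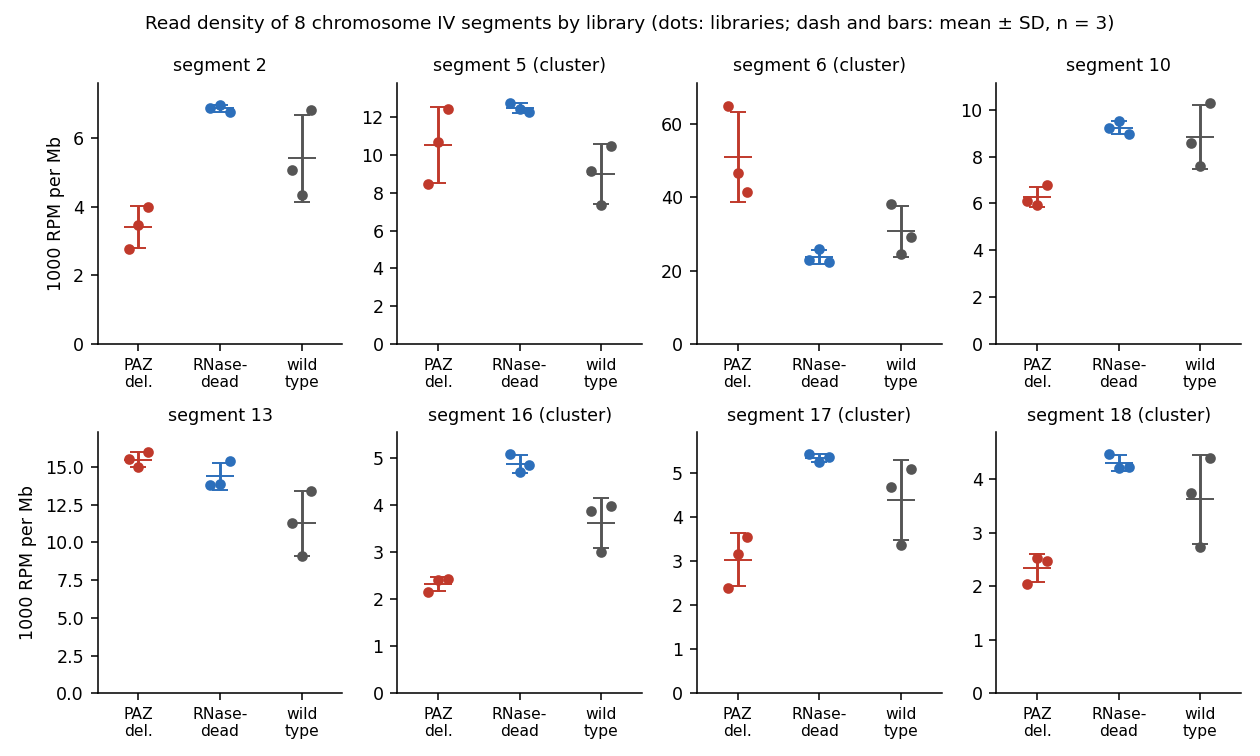
Read density (1000 RPM per Mb) of 8 segments of chromosome IV in each library, with dots for libraries and mean ± SD for 3 libraries per genotype. In segments 2, 10, 16 and 18 all PAZ-deletion libraries lie below all others, and in segment 6 all lie above.

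The decrease in the second cluster can be set beside the loss of piRNA reads. Summed over segments 14 to 18, PAZ-deletion had 16378, 19835 and 21465 RPM, against 24865, 19026 and 26633 in wild type, and the groups overlapped. The difference of means was -4282 ± 2744 RPM (SE). Sense piRNA reads over the whole library were at 1676, 1853 and 1960 RPM in PAZ-deletion, against 5930, 3285 and 4840 in wild type, a difference of -2855 ± 772 RPM (SE) without overlap. When all sense piRNA reads were subtracted from the second cluster, 17396 ± 2455 RPM remained in PAZ-deletion, against 18823 ± 3027 in wild type (SD, n = 3), a difference of -1427 ± 2250 RPM (SE) with overlap. On a log2 scale that difference was -0.11 ± 0.18 (SE), close to the median of all segments in this comparison. The subtraction assumes that every sense piRNA read mapped there, and the table does not show how many did. In the first cluster the sum went the other way, 70196 ± 8802 RPM in PAZ-deletion against 48404 ± 8863 in wild type (SD, n = 3), without overlap. Of its members, segments 5 and 7 overlapped between these genotypes and segment 6 did not.

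RNase-dead animals were next compared with wild type. Of the 8 cluster segments only segment 5 was called, and it rose, with 12747, 12448 and 12259 RPM per Mb in RNase-dead, against 9145, 7347 and 10484 in wild type. The groups did not overlap (log2 fold change 0.47 ± 0.17 SE, edgeR FDR 0.0414). The call was lost without any 1 of 5 libraries, all except wild-type replicate 3, and with TMM factors, where the log2 fold change was 0.20, with an FDR of up to 0.254 over the alternatives. Over all 104 segments 15.4% were called, 11.5% higher and 3.85% lower.

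Among the other 10 segments edgeR called 0, and at an unadjusted p under 0.05 there were 6 higher and 0 lower. DESeq2 called 4 higher with genome-mapped size factors, and 0 higher and 1 lower with median-ratio factors. The log2 fold changes were all positive there, between 0.067 and 0.45, with a median of 0.34. In the clusters 7 of 8 were positive, with a median of 0.27, and the exception was segment 6 at -0.37 ± 0.23 (SE), which was not called. The median of all 104 segments was 0.29, so these shifts were those of the genome at large. In 11 of 18 members every RNase-dead library lay above every wild-type library, and over all 104 segments 59.6% did not overlap.

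Without wild-type replicate 3 the calls became 5 cluster segments and 7 others, all higher, and that library had the smallest share in the last segment of chromosome I among the wild-type libraries. With that segment out of the denominator 0 of the 18 members were called and the median of the tested segments was 0.18. TMM factors left 0 of 104 called. The second cluster held 28952 ± 483 RPM in RNase-dead, against 23508 ± 3981 in wild type (SD, n = 3), without overlap, and the other 10 segments held 82343 ± 1934 RPM in RNase-dead, against 67893 ± 9460 in wild type.

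The mutants were then compared with each other, where the RNase-dead libraries varied little. Of the 8 cluster segments segment 6 rose and segments 14, 16, 17 and 18 fell in PAZ-deletion, and 3 were not called. Of the other 10, segments 1, 2, 3, 10, 11 and 12 fell, 0 rose and 4 were not called. Over all 104 segments 67.3% were called, 53.8% lower and the other 14 segments higher, and the median log2 fold change was -0.40. The median was -0.47 in cluster segments and -0.51 in the other 10.

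Segment 6 had the largest difference of the 18. Its level was 51051 ± 12353 RPM per Mb in PAZ-deletion and 23699 ± 1879 in RNase-dead (SD, n = 3), and the log2 fold change was 1.11 ± 0.23 (SE, edgeR FDR 1.43e-05). The largest decrease was in segment 16, at -1.07 ± 0.18 (SE, edgeR FDR 7.08e-08), with 2156, 2400 and 2419 RPM per Mb in PAZ-deletion, against 5084, 4697 and 4850 in RNase-dead. Segment 2 was close to it at -1.01 ± 0.17, with the same FDR of 7.08e-08. Segments 14, 17 and 18 had log2 fold changes of -0.69, -0.82 and -0.88, and segment 15 had -0.16 and was not called. No library of PAZ-deletion overlapped RNase-dead in any segment of the second cluster. The 2 mutants did not overlap in 13 of 18 members, and over all segments in 76.0%.

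The second cluster held 19226 ± 2598 RPM in PAZ-deletion, against 28952 ± 483 in RNase-dead (SD, n = 3), a difference of -9726 ± 1526 RPM (SE). Sense piRNA reads differed by -4314 ± 303 RPM (SE). After all sense piRNA reads were subtracted, -5412 ± 1418 RPM (SE) remained, again without overlap. The difference in this cluster was thus larger than the whole difference in sense piRNA reads. On a log2 scale the remainder was -0.40 ± 0.12 (SE), the same as the median of all 104 segments in this comparison. The other 10 segments together differed by -0.31 ± 0.08 (SE). What remained was thus of the size of the shift seen over the genome. It assumes that every sense piRNA read mapped to this cluster, which the data do not show. Whether part of it is particular to this cluster was not tested.

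**Figure D4:**
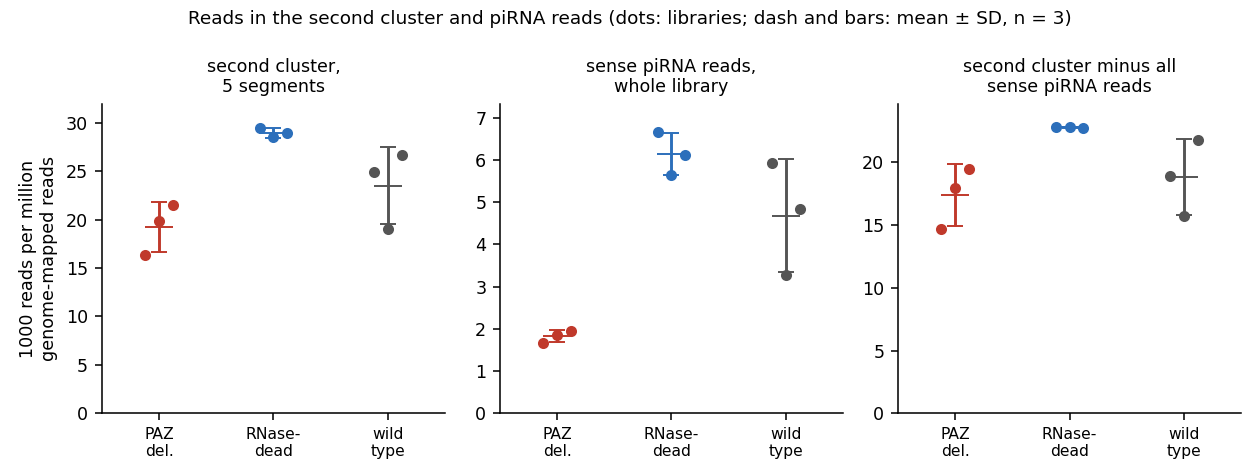
Summed reads of segments 14 to 18 (left), sense piRNA reads of the whole library (middle) and the first minus the second (right), each in 1000 RPM on its own axis, with dots for libraries and mean ± SD for 3 libraries per genotype. PAZ-deletion lies below RNase-dead in all 3 panels, and overlaps wild type in the left and right panels.

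In PAZ-deletion both ends of the chromosome were lower than in RNase-dead, the far end inside a cluster and the near end outside. This grouping was made after the values were seen and gets no test. The first 3 segments hold 12 piRNA genes in all and the last 3 hold 6971. All 6 were lower in PAZ-deletion than in RNase-dead, with log2 fold changes of -1.07 to -0.77. Against wild type 4 of these 6 fell, with log2 fold changes of -0.67 to -0.36 over the 6 and a median of -0.58. Of the 12 segments between them, 4 fell and 1 rose against RNase-dead, and 1 fell and 3 rose against wild type. On the other 5 nuclear chromosomes the first and last 3 segments included 18 lower and 5 higher of 30 against RNase-dead, with a median of -0.44, and the segments between them 28 lower and 7 higher of 55, with a median of -0.38. Against wild type those end segments included 11 lower and 6 higher of 30, with a median of -0.18, and the segments between them 13 lower and 8 higher of 55, with a median of -0.10. Chromosome II was like chromosome IV in this, with 4 of 6 end segments lower in each comparison, and 1 higher against wild type. Its end segments had a median of -0.75 against RNase-dead and -0.51 against wild type, and the segments between them -0.18 and 0.0098. End segments lower and higher against wild type were 3 and 1 on chromosome I, 1 and 1 on III, 1 and 0 on V and 2 and 3 on X. Against RNase-dead they were 3 and 1, 5 and 1, 3 and 0, and 3 and 3 in the same order.

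**Figure D5:**
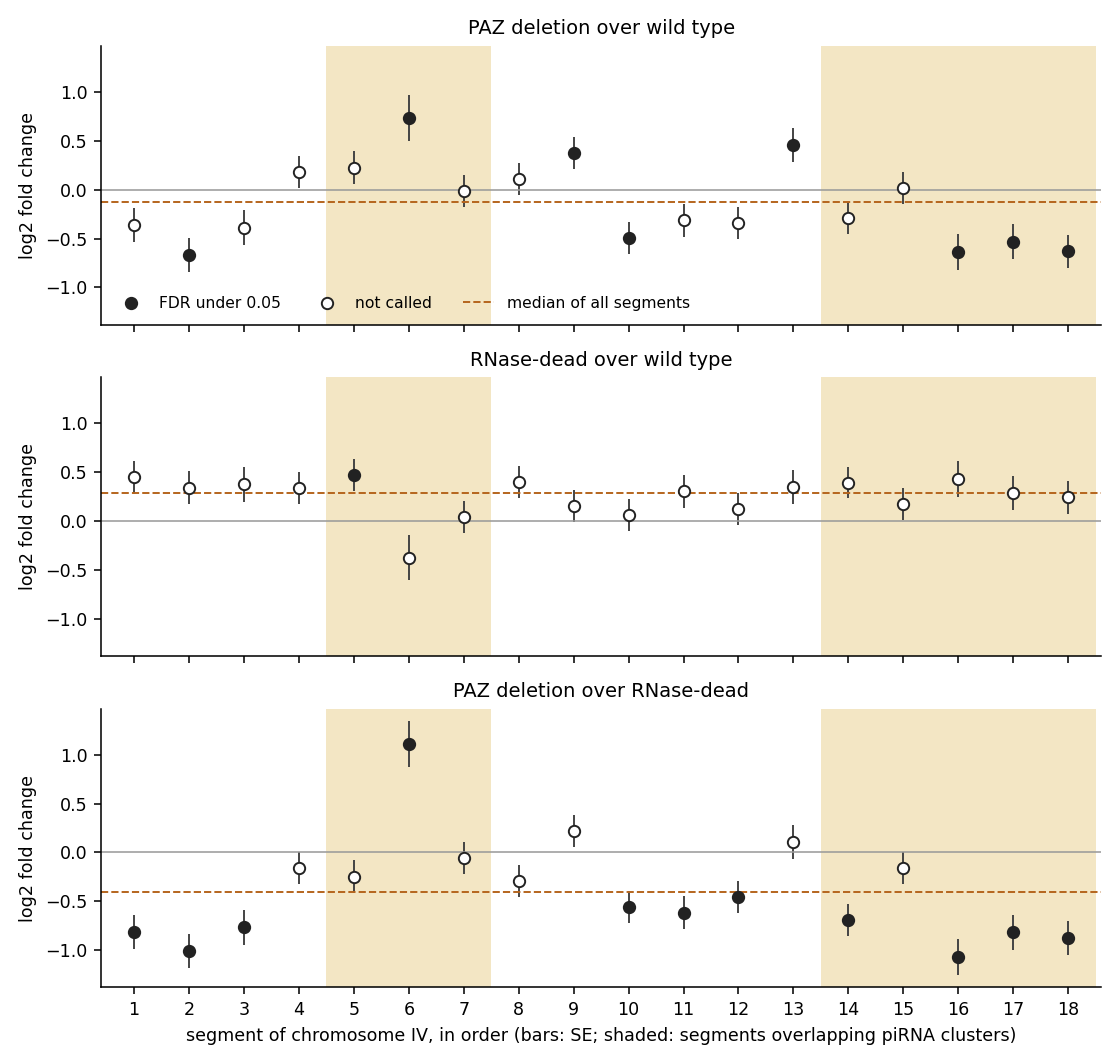
Log2 fold changes (edgeR) of the 18 segments in order, with SE bars, filled where the FDR is under 0.05. The dashed line is the median of all 104 segments, at -0.13, 0.29 and -0.40 from top to bottom. In the bottom panel segments 1 to 3 and 16 to 18 lie between -1.07 and -0.77.

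Scaling moved the split of these calls. For PAZ-deletion against wild type, 3 of 18 members were higher and 5 lower with genome-mapped reads, and 7 higher and 8 lower with TMM factors, which put the median of all segments at 0.00 and not at -0.13. For PAZ-deletion against RNase-dead, 1 was higher and 10 lower, against 6 higher and 8 lower with TMM factors. In DESeq2 with median-ratio factors the splits were 7 and 10, and 7 and 8. Segments 4, 7 and 15, negative and not called against RNase-dead with genome-mapped reads, were called higher under both of these scalings, and segment 5 under the second. With the last segment of chromosome I out of the denominator, 2 were higher and 10 lower than wild type. Under all of these scalings, and in both comparisons, segments 16 and 18 were called lower and segment 6 was called higher in PAZ-deletion.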

How the data were processed

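Small RNA of 9 samples was sequenced. Per the labels' protocols, isolation used mirVana reagents, digestion with acid pyrophosphatase opened RNAs carrying a 5′ triphosphate to cloning, and libraries were of the TruSeq small RNA type. The submitters' processing notes name FastQC 0.12.0 and cutadapt 3.7. The aligner, how multiply matching reads were placed and the genome build were not given in the sources used here. Per the file headers, the deposited values are raw read counts per genome segment and raw sense counts per piRNAdb entry. Each segment column adds up to the whole-genome total of its first line, which stayed out of tests. Segments have lengths but no names, and file order was read as chromosome order, a chromosome ending at each segment shorter than 1000000 bases. The lengths leave room for all genes of WBcel235 (Ensembl release 115), and chromosome IV ends at base 17493829, the end of its last annotated gene. Antisense piRNA counts and the authors' deposited table of totals were not used.

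Genes were placed in segments by their midpoint. All 104 segments, each with at least 11192 reads over the 9 libraries, were tested on counts with edgeR 4.0.16 (glmQLFit, glmQLFTest). Library sizes were genome-mapped reads, a single fit held all libraries, and p-values were adjusted by Benjamini and Hochberg's method over 104 segments. SEs of log2 fold changes were obtained as |log2 fold change| divided by the root of F, and rest mostly on a spread pooled over segments. In simulated tables of 104 segments, PAZ-deletion against wild type gave back 75.0% of 1.5-fold and 100.0% of 2-fold changes. RNase-dead against wild type gave back 80.8% and 99.8%, and PAZ-deletion against RNase-dead 77.5% and 99.5%, and 3.16% to 5.83% of these calls were false. Each of 20 draws changed 20 segments in random directions, with library totals as in the data. Shifts in the data were more one-sided, so these shares are not error rates of the calls reported here. Sums over segments were compared as values without a test, with an SE from the library variances. Alternatives were TMM factors, DESeq2 1.42.0, other denominators, a replicate block, fits of 2 groups, a count filter, other cluster limits and each library left out.

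Per-library values are given for the highest and lowest segment of each kind, the largest called change in each direction, every called cluster segment, and some others beside them. The members and lists were chosen with earlier results of these data known. Replicates of a genotype differed by far more than sampling noise, so each counted as a library of its own. That does not show that they came from separate cultures. A planned motif count and sequences were not made, since no genome sequence was used here.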

Additional observations from a re-analysis of the deposited data

How the results depend on the processing

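No segment of chromosome IV called with genome-mapped reads and all libraries changed direction under any alternative run. Of those not called there, some were called in the opposite direction after rescaling, 3 with TMM factors and 4 in DESeq2 with median-ratio factors for PAZ-deletion against RNase-dead, and 2 in DESeq2 with median-ratio factors for RNase-dead against wild type. For PAZ-deletion against wild type the count of called cluster segments, 4, was 7 in DESeq2 with median-ratio factors and 2 to 5 with 1 library left out. The count among the other 10, 4, was 2 in a fit of the 2 groups, 7 without the last segment of chromosome I in the denominator, 9 with TMM factors, 10 in DESeq2 with median-ratio factors and 1 to 5 with 1 library left out. For RNase-dead against wild type the cluster count, 1, was 3 in a fit of the 2 groups, 3 and 2 in DESeq2 with genome-mapped and median-ratio factors, 0 without the last segment of chromosome I, 0 with TMM factors and 0 to 5 with 1 library left out. The other count, 0, was 2 in a fit of the 2 groups, 4 and 1 in DESeq2 with the same 2 kinds of factors and 0 to 7 with 1 library left out. For PAZ-deletion against RNase-dead the cluster count, 5, was 8 in DESeq2 with median-ratio factors and 5 in every fit with 1 library left out, and the other count, 6, was 5 to 7. The cause of these changes was not tested. The count filter of 10000 reads removed no segment.

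Same-numbered libraries did not deviate together (r over 104 segments from -0.561 to 0.136 for the 9 pairs with the same number), so the numbers were not taken to pair samples. With a replicate block in a fit of the 2 groups, PAZ-deletion against wild type had 2 cluster segments and 1 other called. With the replicate block RNase-dead against wild type had 0 cluster segments called, in the fit of all libraries and in that of the 2 groups.

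The log2 ratio of cluster reads to other reads depended on which segments were summed. For PAZ-deletion against wild type the difference, 0.35 ± 0.17 (SE), was 0.57 with the first cluster only, -0.26 with the second cluster only and 0.046 without the highest segment of each kind. For RNase-dead against wild type, -0.23 ± 0.11 (SE), it was -0.37 with segments wholly inside a cluster, -0.37 with the first cluster only, 0.028 with the second cluster only, 0.034 without the highest segments and -0.075 by the median of segment fold changes. For PAZ-deletion against RNase-dead, 0.58 ± 0.13 (SE), the same 5 settings gave 0.80, 0.94, -0.29, 0.012 and 0.041. With 1 library left out the 3 differences were 0.22 to 0.46, -0.29 to -0.12 and 0.45 to 0.66. Changes of 1.5-fold in a segment were not always detectable, with 75.0% to 80.8% given back in the simulated tables. Smaller changes were not simulated.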
